A study of Drosophila melanogaster with 3 samples.

Results

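The summits described here are the places in a list of Relish (Rel) binding regions of Drosophila melanogaster larvae that most of the biological replicates did not hold among their strongest peaks. Chromatin immunoprecipitation followed by sequencing was done with an antibody to GFP on whole wandering L3 larvae (the third larval instar), males and females pooled, of a transgenic line that stably expresses Rel with GFP at its N terminus. The labels also write the fusion as Rel-eGFP, and their antibody tag reads Rel where the description reads anti-GFP. The promoter that drives the fusion is not given in the sources used here. There were 3 biological replicates of this 1 group, each with its own peak list of 30000 summits, and an optimal list of summits kept after a test of reproducibility between replicates. All comparisons below are between sets of summits, since the larvae had 1 genotype, 1 stage and no treatment, and the control experiment was not analysed here. In whole larvae, fewer cells with a bound site and weaker binding per cell cannot be told apart.

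The members were chosen by their measured ranks. An optimal summit was counted as matched in a replicate where a summit lay within 100 bp of it among that replicate's peaks of highest signal, taking as many of them as the optimal list has lines, and it became a member where at most 1 of the 3 replicates matched it. This selected 1053 optimal summits (11.2% of the list), in 1051 peak intervals. Of these, 307 were matched in replicate 1 alone, 394 in replicate 2 alone, 300 in replicate 3 alone and 52 in no replicate. The set they are compared with holds the 6060 summits matched in all 3 replicates (64.3%), called fully matched below. Another 2306 summits were matched in exactly 2 replicates, and these 3 sets make up the whole list. The lowest rank that can match is called the rank limit below. Because ranks and signal chose the members, their ranks and signal values are given as a description, with no test.

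Rel is one of the NF-κB family transcription factors of the fly. Signalling through the IMD pathway, which peptidoglycan recognition proteins start when they bind bacterial cell wall fragments, leads to cleavage of Rel, and its N-terminal part enters the nucleus, binds κB sites and switches on genes for antimicrobial peptides. The fat body and the hemocytes are the best known sites of this response in the larva.

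The κB consensus differed in frequency between the members supported by different replicates, so the sites of 9 of the 10 highest-ranked members that hold it are shown first, with the matched bases in capitals and each sequence read 5′ to 3′ on the strand of the match. Each name is the gene whose transcription start lay nearest to the summit. Sequences are from the RefSeq release 6 genome. Each stretch is 42 bases long.
CG18404: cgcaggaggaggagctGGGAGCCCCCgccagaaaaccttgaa
CG6966: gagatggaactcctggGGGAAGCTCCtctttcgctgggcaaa
bif: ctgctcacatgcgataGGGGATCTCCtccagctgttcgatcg
msn: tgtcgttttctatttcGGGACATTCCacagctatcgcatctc
ltl: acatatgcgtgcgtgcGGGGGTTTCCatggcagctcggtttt
lncRNA:CR44729: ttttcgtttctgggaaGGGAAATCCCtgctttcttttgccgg
lncRNA:CR45418: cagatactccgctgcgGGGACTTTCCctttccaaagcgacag
Best1: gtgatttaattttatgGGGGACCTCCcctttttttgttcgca
CG34300: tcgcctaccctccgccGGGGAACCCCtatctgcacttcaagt
The stretches lie at chr3R:30261745-30261786 (CG18404), chr3R:15088214-15088255 (CG6966), chrX:11684884-11684925 (bif), chr3L:2583536-2583577 (msn) and chr3L:7519390-7519431 (ltl). The remaining stretches lie at chr2L:14269140-14269181 (lncRNA:CR44729), chr3L:6609130-6609171 (lncRNA:CR45418), chr3R:10177401-10177442 (Best1) and chr3R:30328234-30328275 (CG34300). Those at ltl and lncRNA:CR45418 are read on the minus strand and the others on the plus strand. The site at CG18404 was intergenic, those at ltl and lncRNA:CR45418 were in promoters (within 500 bp of a transcription start), and the others were in introns, of CG6966, bif, msn, wb, CG12814 and heca. The other one of the 10, in the promoter of NAT1, is given by its values only. In 6 of the 10 members replicate 2 was the only replicate with a match, in bif, lncRNA:CR44729 and NAT1 it was replicate 3, and in msn it was replicate 1. A sequence match is a description of the letters in the window and is not evidence that Rel binds there.

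A core promoter element stands beside it, because its matches at the members lay almost only in promoters (40 of 43). The same held over all optimal summits (294 of 316). The DRE, TATCGATA, is bound by the promoter factor DREF, and CG7115 and the ribosomal protein gene RpL6 had a member with a DRE match that replicate 2 alone supported. Both examples were picked after their values were seen.
CG7115: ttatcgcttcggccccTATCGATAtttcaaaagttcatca
RpL6: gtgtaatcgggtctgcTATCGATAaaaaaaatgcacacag
The stretches lie at chr2L:7821503-7821542 (CG7115) and chr3R:31596431-31596470 (RpL6) on the plus strand.

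The deposited signal of the members, in the list made from the pooled replicates, ran from 191 to 1159 with a median of 215, against 197 to 20515 and a median of 532 at fully matched summits. Members were all but absent from the strongest summits and filled the weakest. With the optimal list cut by signal into 10 equal bins, bin 1 the strongest, they made up 0% of bin 1, 4.78% of bin 7, 13.1% of bin 8, 29.9% of bin 9 and 60.3% of bin 10. With the list cut into 3 equal bands, 986 members were in the low band, 61 in the middle band and 6 in the high band. Even within the low band the members had the lower signal, with a median of 213 against 270 at fully matched summits, so comparisons within it do not match signal fully. Their intervals had a median width of 268 bp, against 438 bp for fully matched summits, and within the low band the medians were 258 and 268 bp. The optimal list is the top of the pooled list by signal, so its lower end, like the members, is set by rank. The number of reads behind each list is unknown here, because the files hold signal values and not counts.

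**Figure D1:**
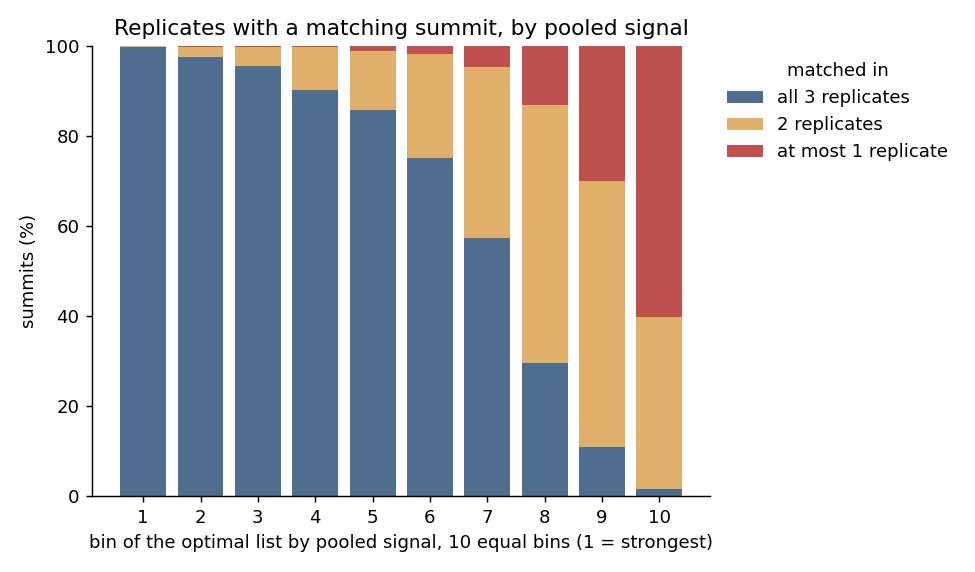
Share of optimal summits (%, vertical axis) matched in all 3 replicates, in exactly 2, or in at most 1, for each of 10 equal bins by pooled signal (horizontal axis, 1 strongest). The share matched in at most 1 replicate was 0% in the strongest bin and 60.3% in the weakest.

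Most members had a nearby summit in the replicates that failed to match them. Across the 1053 members there were 2158 pairs of a member and a replicate without a match. In 1766 of them (81.8%) the replicate had a summit within 100 bp that ranked below the limit. A further 264 pairs (12.2%) had one of the replicate's top summits beyond 100 bp and up to 500 bp away, 80 pairs (3.71%) had only a lower-ranked summit at that distance, and 48 pairs (2.22%) had no summit within 500 bp. In the full lists of 30000 summits, 747 members (70.9%) had a summit within 100 bp in all 3 replicates, 220 in 2 and 86 in 1. In the full lists the same rule would thus select only those 86, and the others are "unsupported" only at the rank limit used.

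Ranks showed how far the replicates were apart. Members matched in replicate 1 alone had a median rank of 6318 there, 11272 in replicate 2 and 10596 in replicate 3, counting those with a summit within 100 bp. Members matched in replicate 2 alone had medians of 11660, 6342 and 11112 in replicates 1, 2 and 3, and members matched in replicate 3 alone had medians of 11201, 11187 and 7154. The supporting replicate thus placed them in the lower part of its top list, while the other two placed the typical member a little below it. The 52 members matched nowhere had medians of 10950, 10416 and 10430. Fully matched summits had medians of 3231, 3264 and 3214.

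**Figure D2:**
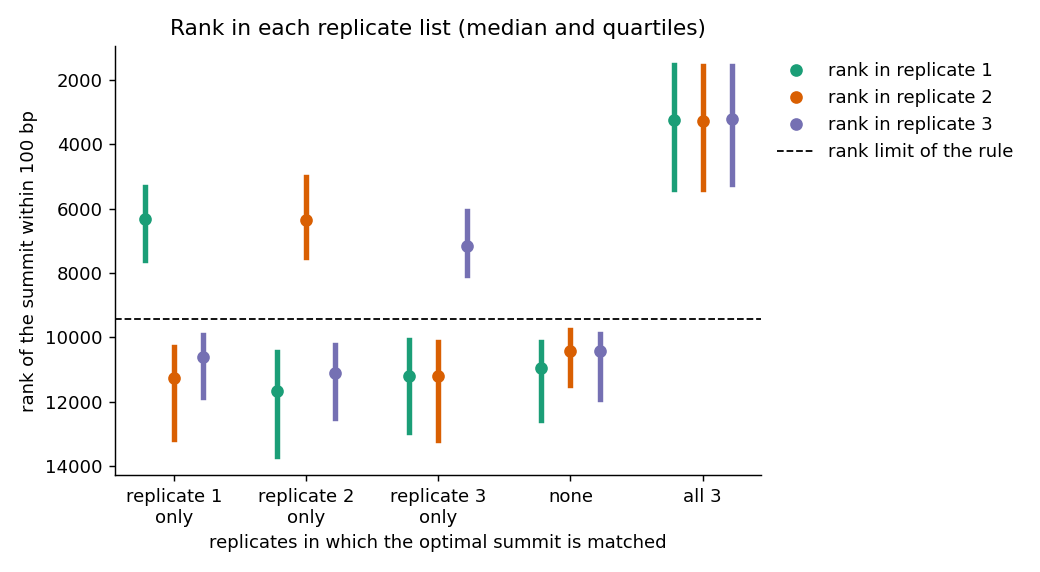
Rank of the summit within 100 bp (vertical axis, strongest at the top) in each of the 3 replicate lists, for members matched in 1 replicate alone, in none, and for fully matched summits. Points are medians over the summits that had one, bars run from the first to the last quartile, and the dashed line is the rank limit. In a replicate that did not match a member, the rule itself places any such rank below the line. The medians there ran from 10416 to 11660.

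Near the limit of the rule the sets ran into each other. A total of 283 members had an unmatched summit within 100 bp ranked from 9420 to 9919, and 293 summits matched in exactly 2 replicates had their lowest match at rank 8920 or below, inside the limit. Their median signals were 215 and 219. By distance, 88 members had a top summit beyond 100 bp and up to 120 bp, and 144 summits matched in exactly 2 replicates had their farthest match at 81 to 100 bp.

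**Figure D3:**
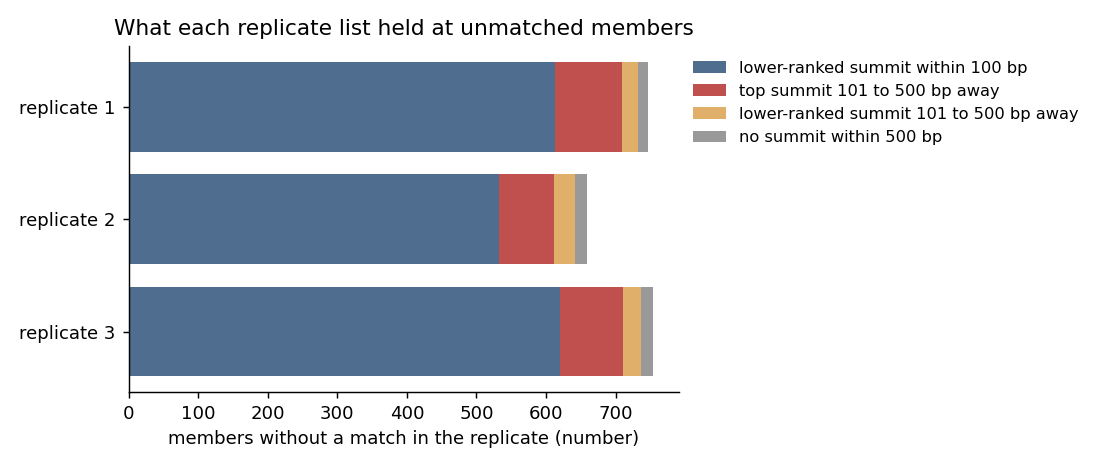
Number of members without a match in each replicate (horizontal axis), split by what that replicate's list held nearby. In each of the 3 replicates the largest class was a lower-ranked summit within 100 bp, at 613 of 746, 533 of 659 and 620 of 753 members.

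The strongest members differed from the rest in their surroundings, and most of them shared an interval with another optimal summit. Of the 19 members in the stronger part of the optimal list (its upper 50%, by rank), 15 (78.9%) shared their interval with another optimal summit, against 19.0% of the 4413 fully matched summits there. Of their 38 unmatched pairs, 32 had a top summit of the replicate beyond 100 bp and up to 500 bp away and 4 had a lower-ranked summit within 100 bp. In the weaker part, 117 of 1034 members (11.3%) shared an interval, and 1762 of 2120 pairs (83.1%) had a lower-ranked summit within 100 bp. Over all members, 132 (12.5%) shared an interval with another optimal summit, and in 115 of these a fully matched summit was in the same interval. The share was 15.6% of fully matched and 14.8% of all optimal summits, so members as 1 set shared intervals less often (difference -3.03 points, -5.11 to -0.71). It was 6.51%, 15.2% and 14.0% for members supported by replicates 1, 2 and 3 alone. That spread (SD 4.72, n = 3 sets) is wider than the difference. Within bands by signal members shared intervals more often than fully matched summits, with 10.3% against 6.87% in the low band and 41.0% against 9.50% in the middle band.

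Among the strongest was a summit in an intron of Eip78C, which codes for a nuclear receptor induced by ecdysone. It lay at chr3L:21253641 in the interval chr3L:21253223-21254833, had a signal of 1159 and rank 1174, and was matched at rank 839 in replicate 2. Replicates 1 and 3 had their nearest top summits 256 and 181 bp away, inside the same region. An intronic summit in prage (chrX:1830764, rank 1671) was matched only in replicate 1, at rank 999, with top summits 127 and 232 bp away in replicates 2 and 3. The promoter summit of mAcon1, the mitochondrial aconitase gene (chr2L:21168719, rank 2741), was matched only in replicate 3, at rank 2650, with top summits 141 and 110 bp away in replicates 1 and 2. Each of these members lay inside a top interval of both replicates that did not match it. At Eip78C and prage the neighbouring optimal summit, 215 and 227 bp away at ranks 1312 and 2380, was matched in all 3 replicates.

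Other strong members also lay near top summits of the replicates that did not match them. At vri, the clock gene vrille, the member in an intron (chr2L:5306583, rank 3483) ranked 3190 in replicate 1, and the top summits of replicates 2 and 3 lay 129 and 122 bp away. At the promoter of Klp64D, a kinesin-2 motor subunit, the member (chr3L:5359530, rank 3830) ranked 3013 in replicate 2 and 13442 in replicate 1, next to an optimal summit of rank 168 at 202 bp that all 3 replicates matched. At Mbs, the regulatory subunit of myosin phosphatase, the member 30 bp from the start (rank 4061) ranked 3440 in replicate 1, with top summits 112 and 160 bp away in replicates 2 and 3. Further such members lay at lncRNA:CR45668, CG32369, CG6051, gpp (which codes for the H3K79 methyltransferase), Ctl2, svr and CG33798. The member at the promoter of CG43116 was an exception, since the nearest top summits of replicates 2 and 3 were 637 and 618 bp away.

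The 52 members matched nowhere mixed both kinds. In an intron of tfc (chr3L:1263760, rank 8173) each replicate had a summit within 100 bp, and these ranked 10733, 9635 and 9838, all a little below the limit. At the promoter of Tre1, a G protein-coupled receptor needed for germ cell migration, the ranks were 9430, 10742 and 16025. At spen, a large nuclear RNA-binding protein, the member (rank 8357) ranked 21980, 15382 and 17958 and had a top summit of each replicate 226, 121 and 167 bp away. At the promoter of MED17, a Mediator subunit, only replicate 3 had a summit within 100 bp, at rank 13995. At CG15529 the ranks were 11327, 18023 and 11913, and at CG5664 they were 13379 and 29599 in replicates 1 and 3. CG31638 had ranks of 9438 and 9482 in replicates 1 and 2, and lncRNA:CR45640 had 11558 and 9784 there. Lmpt, a LIM domain gene, had a summit within 100 bp in replicate 2 alone, at rank 11110, and CG34417 in replicate 1 alone, at rank 11589. So most of these 10 members, the strongest of the 52, lacked a summit within 100 bp in at least 1 replicate. Over all 52 it was otherwise, since 32 (61.5%) had a summit within 100 bp in all 3 replicates.

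Promoters were the most frequent place of the members, as of the fully matched summits. They held 508 members (48.2%, exact 95% interval 45.2 to 51.3), against 50.7% of fully matched summits and 50.5% of all optimal summits. The difference was -2.45 percentage points (Newcombe 95% interval -5.71 to 0.82), so it did not stand apart from counting error. It depended on the match distance, at 3.70 points (0.96 to 6.44) for 50 bp, -6.66 points (-10.3 to -2.92) for 200 bp and -9.59 points (-13.4 to -5.65) for 500 bp. It was -5.50 points (-8.99 to -1.98) with an optimal summit inside a top interval counted as matched, and -3.67 points (-6.91 to -0.48) with promoters taken to 1000 bp. The share was 47.6%, 48.2% and 47.0% for members supported by replicates 1, 2 and 3 alone (mean 47.6% ± 0.61, SD, n = 3 sets). Introns held 38.1% of members and 35.3% of fully matched summits, and intergenic sequence held 10.1% and 8.84%. All such intervals cover counting error only, and summits are not replicates of a condition.

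Chromosome arm 2R held a smaller share of the members than of the fully matched summits. It carried 17.2% of members and 21.2% of fully matched summits, a difference of -4.0 points (-6.40 to -1.40), and the share was 17.3%, 16.8% and 17.3% in the 3 sets supported by 1 replicate alone. Within the low band by signal the difference was -2.58 points (-6.70 to 1.36), which did not stand apart from counting error. The X carried 18.1% of members and 16.8% of fully matched summits. Here the single-replicate sets ran from 13.3% for replicate 3 to 22.5% for replicate 1, a spread wider than the difference itself.

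**Figure D4:**
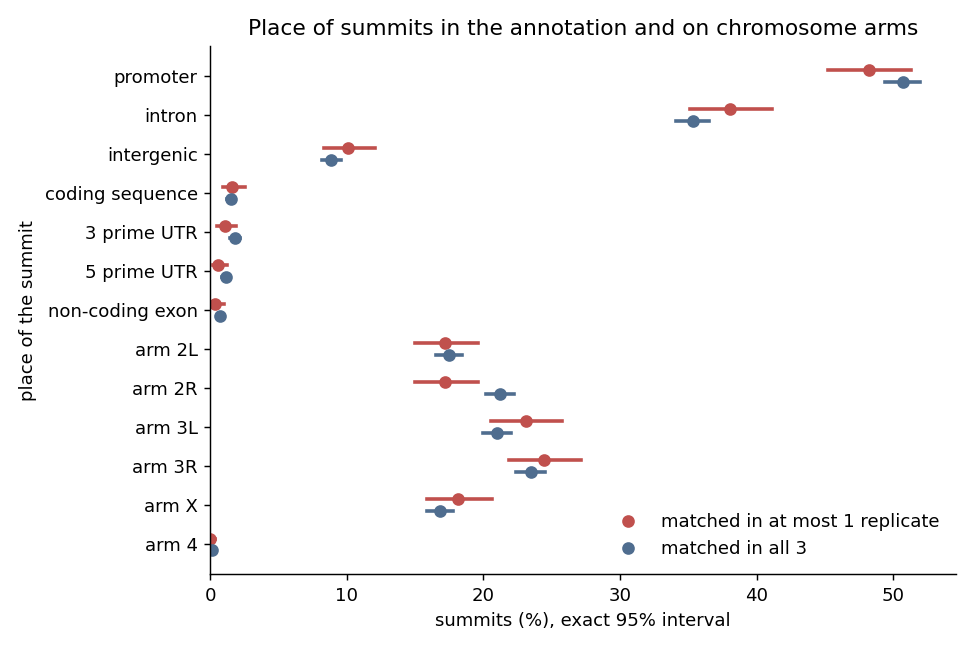
Share of members and of fully matched summits (%, horizontal axis) in each annotation class and on each chromosome arm (vertical axis), with exact 95% intervals as bars. Promoters held 48.2% of members and 50.7% of fully matched summits, and arm 2R held 17.2% and 21.2%.

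Among motifs, the κB consensus differed by which replicate supported a member, and GAGA and the DRE, given below, did so too. Motifs were searched on both strands within 100 bp to each side of a summit. The consensus was found at 6 of 307 members supported by replicate 1 alone (1.95%, exact 95% interval 0.72 to 4.21), 44 of 394 supported by replicate 2 alone (11.2%, 8.23 to 14.7) and 14 of 300 supported by replicate 3 alone (4.67%, 2.57 to 7.71), and at 1 of the 52 matched nowhere. Replicate 2 alone exceeded replicate 1 alone by 9.21 points (5.67 to 12.9) and replicate 3 alone by 6.50 points (2.43 to 10.5), whereas replicates 3 and 1 differed by 2.71 points (-0.21 to 5.90). In flanking windows 1000 bp from the summits the share was 1.85%, 1.98% and 2.09%, so members supported by replicate 1 alone held the consensus about as often as their flanks.

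At members the consensus was more frequent outside promoters (9.72%) than in them (2.36%). This held too at fully matched summits (12.1% and 6.28%) and at all optimal summits (10.6% and 5.08%). It did not hold at summits matched in replicates 1 and 3 (1.64% and 2.32%). Outside promoters 17.6% of members supported by replicate 2 alone held the consensus, against 3.73% and 6.29% for replicates 1 and 3. In promoters the shares were 4.21%, 0% and 2.84%. Summits matched in exactly 2 replicates showed the same order, with 6.10% where replicates 1 and 2 matched, 7.66% where 2 and 3 did, and 1.97% where 1 and 3 did. Restricted to the low band by signal, replicate 2 alone exceeded replicate 1 alone by 9.83 points (6.16 to 13.7). Of the 65 members with the consensus, 44 (67.7%) were supported by replicate 2 alone.

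The whole top lists of the replicates moved the same way. Among all top summits the consensus was in 6.77% of replicate 1, 8.46% of replicate 2 and 7.25% of replicate 3. Among top summits outside the optimal list it was in 1.77%, 6.60% and 2.46%. The signal at the rank limit was 63.4, 68.8 and 81.5 in replicates 1, 2 and 3, and the part of such differences between the lists in the motif shares was not tested.

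Single members show how far the ranks could part at κB matches. The intronic member in CG6966 (chr3R:15088269, match centred 34 bp from the summit) ranked 2724 in replicate 2, 22553 in replicate 1 and 9699 in replicate 3. The promoter member of ltl, larval translucida (chr3L:7519437), ranked 3096 in replicate 2 but 12157 and 11615 in replicates 1 and 3. The intronic member in heca, the headcase gene (chr3R:30328274), ranked 4837 in replicate 2, and 10536 and 11628 in replicates 1 and 3. In these 3 members the rank in replicate 2 was far above both others. At msn, which codes for the kinase misshapen, known to act upstream of the JNK pathway, the intronic member (chr3L:2583468) ranked 7023 in replicate 1, 14062 in replicate 2 and 10580 in replicate 3. The promoter member of NAT1, a translation regulator related to eIF4G (chr2R:12917366, rank 6174), ranked 4382 in replicate 3 and had no summit within 100 bp in replicates 1 and 2. In bif, a cytoskeletal protein gene, the member (chrX:11684893) ranked 5569 in replicate 3, 10782 in replicate 2 and 18089 in replicate 1.

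Taking all members as 1 set hides this. The consensus was in 65 members (6.17%), against 9.17% of fully matched summits and 7.80% of all optimal summits, a difference of -3.0 points (-4.50 to -1.24). That difference is smaller than the spread among the 3 single-replicate sets, whose mean was 5.93% ± 4.73 (SD, n = 3 sets), and it turned to 1.51 points (-0.93 to 3.71) within the low band by signal. Leaving out replicate 2 gave 1.90 points (-0.65 to 5.11). The members are then those that replicate 2 alone supported and those matched nowhere, so this value does not remove the part of replicate 2.

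GAGA, the binding motif of the GAGA factor Trl, ran the other way. The letters GAGAGAG were found in 9.12% of members supported by replicate 1 alone, 3.30% by replicate 2 alone and 6.0% by replicate 3 alone. Replicate 2 alone was below replicate 1 alone by 5.82 points (difference -5.82, -9.81 to -2.27). The share over all members was 5.79%, against 6.70% of fully matched summits and 6.70% of all optimal summits. Summits matched in replicates 1 and 3 held it at 9.55%, and those matched in replicates 1 and 2 at 4.72%. Where replicates 2 and 3 matched it was 5.75%. Replicate 2 alone against replicate 3 alone gave -2.70 points (-6.26 to 0.44), which did not stand apart from counting error. Members matched in no replicate held GAGA at 3.85% (2 of 52). So members supported by replicate 3 alone had fewer κB matches than those supported by replicate 2 alone, with no clear difference in GAGA. Members supported by replicate 1 alone had more GAGA and fewer κB matches than those supported by replicate 2 alone. Summits matched in replicates 1 and 3 likewise had more GAGA and fewer κB matches than either pair with replicate 2.

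GATA matches were less frequent at members than at fully matched summits. GATA factors, among them Serpent of the fat body and hemocytes, bind this motif. The letters GATAAG were in 16.6% of members, 21.0% of fully matched summits and 19.3% of all optimal summits, a difference of -4.35 points (-6.72 to -1.78). The sets supported by replicates 1, 2 and 3 alone had 17.3%, 16.8% and 16.3% (mean 16.8% ± 0.47, SD, n = 3 sets), all below the fully matched share. Set by set the difference was -3.71 points (-7.67 to 1.02), -4.22 (-7.74 to -0.093) and -4.64 (-8.54 to 0.072). For replicates 1 and 3 the interval thus included 0. Within the low band by signal the difference over all members was -4.85 points (-9.03 to -0.83), with 16.6% of members and 21.5% of fully matched summits. Summits matched in exactly 2 replicates were also lower, at 16%. The interval reached past 0 with matches counted up to 200 bp (-3.0 points, -5.72 to 0.012) or 500 bp (-1.54 points, -4.44 to 1.70). It also did with the motif within 50 bp of the summit (-1.83 points, -3.69 to 0.28) and without replicate 1 (-3.53 points, -7.17 to 0.78).

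**Figure D5:**
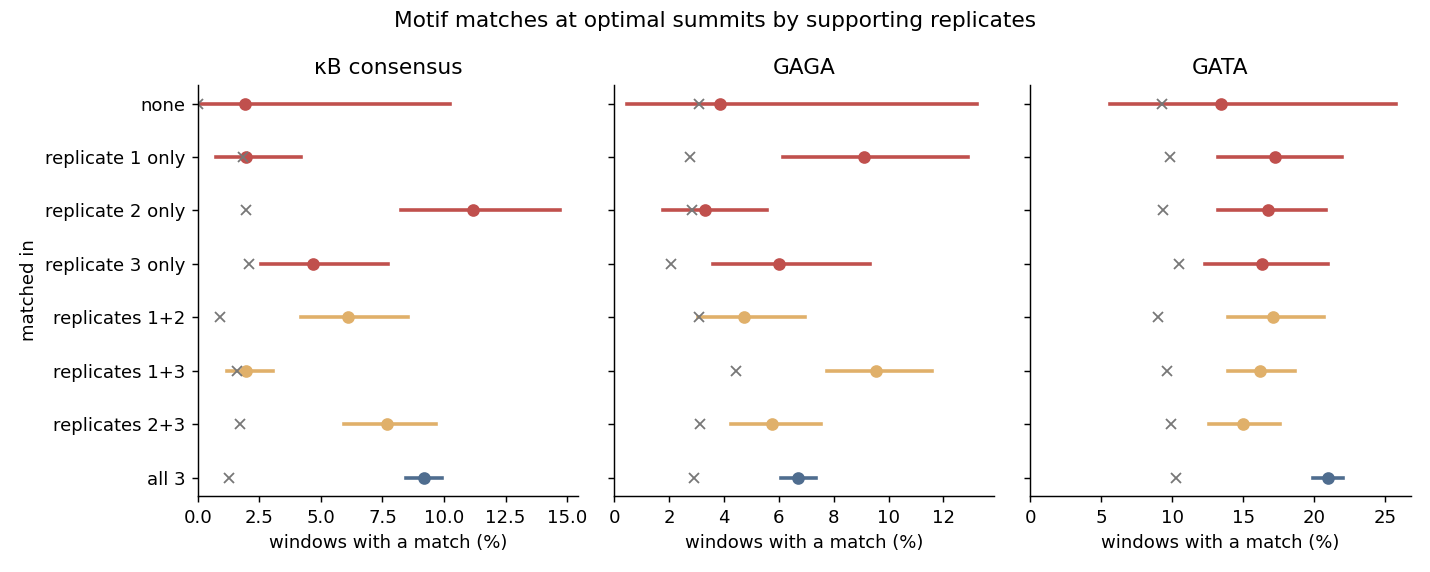
Share of summit windows with a match (%, horizontal axes) to the κB consensus, GAGA and GATA, by the replicates that matched the summit (vertical axis). Points are shares, bars are exact 95% intervals, and crosses are the share in flanking windows. κB was at 11.2% where replicate 2 alone gave support and 1.95% where replicate 1 alone did, and GATA was at 16.3% to 17.3% in all 3 single-replicate sets against 21.0% at fully matched summits.

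The remaining motifs had smaller differences over all members than GATA and κB. AP-1, TGANTCA, the site of the JNK-responsive Jun and Fos proteins, was in 8.17% of members, 6.83% of fully matched summits and 6.73% of all optimal summits, and within the low band in 8.52% and 5.46% (difference 3.06 points, 0.36 to 5.54). The DRE was in 4.08% of members, 3.32% of fully matched summits and 3.35% of all optimal summits. By support 1.95%, 6.09% and 4.0% of members held it where replicate 1, 2 or 3 alone was the match. Replicate 2 alone exceeded replicate 1 alone by 4.14 points (1.16 to 7.14) and replicate 3 alone by 2.09 points (-1.38 to 5.38). The DRE was in 4.33% of summits matched in replicates 1 and 2, 4.19% in 2 and 3, and 1.56% in 1 and 3. All 24 members with a DRE match that replicate 2 alone supported were in promoters, as were 294 of the 316 optimal summits with a DRE match. The core of the Ohler 1 promoter motif, GGTCACAC, was in 3.23%, 4.06% and 3.80%, and the E-box CACGTG in 2.47%, 2.59% and 2.72%, of members, fully matched summits and all optimal summits. A total of 8 motif forms were compared, 1 of them a relaxed form of κB, and no interval is adjusted for that number.

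Around genes, 773 of 13945 protein-coding genes (5.54%) had a member within 1000 bp of a transcription start, and for 398 of them no other optimal summit lay there. Any optimal summit lay there at 5288 protein-coding genes (37.9%), and the 773 are among these. The counts of antimicrobial peptide and peptidoglycan recognition protein genes with a member were too small to set apart from that 5.54%. Any optimal summit lay at 67.7% and 76.9% of these genes. Of 31 antimicrobial peptide genes, 21 had an optimal summit and 19 a fully matched one, and 1 (3.23%) had a member. That gene was CecB, which codes for a cecropin. Its summit lay 47 bp from the start (chr3R:30213844), had rank 9364 and was matched nowhere, with ranks of 10912, 9983 and 10430 in replicates 1, 2 and 3, so all 3 replicates held it below the limit. None of 13 peptidoglycan recognition protein genes had a member within 1000 bp of a start, while 10 had a fully matched summit there. PGRP-LB, an amidase that degrades peptidoglycan, had one in an intron just past that distance, at 1033 bp (chr3R:11459053, rank 5418), which was named after its values were seen. It ranked 4352 in replicate 1 and 9792 in replicate 2, and the nearest top summit of replicate 3 was 103 bp away.

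Of 20 IMD pathway genes, 3 had a member (15%). Scrawny (scny), a deubiquitinase, had one 20 bp from its start (chr3L:5769022, rank 7440) that ranked 9185 in replicate 3 and had no summit within 100 bp in the other two. Uev1A, a ubiquitin-conjugating enzyme variant of the pathway, had one 60 bp from its start that ranked 12062 in replicate 1, 7120 in replicate 3 and had none within 100 bp in replicate 2. Tab2, the partner of the kinase Tak1, had one 301 bp from its start that ranked 9737, 7360 and 10124. That summit lay nearer to the start of mip40, at 32 bp. Of 18 Toll pathway genes only Pli (pellino) had a member, with ranks of 7018, 14744 and 9521.

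In the JNK pathway 3 of 13 genes had a member, and they act at 3 steps of it. They were egr, the TNF ligand, with ranks of 10428, 9999 and 9462, hep, the kinase of JNK, found within 100 bp in replicate 3 alone at rank 4278, and bsk, JNK itself, with ranks of 13180, 13086 and 5832. At these promoters of hep and bsk replicate 3 alone gave support. A second member of hep, in its intron (chrX:13087639, rank 6583), was supported by replicate 1 alone, at rank 3963. In the JAK-STAT pathway 2 of 16 genes had a member: the receptor gene dome, matched in replicate 1 at rank 5427, and the phosphatase gene Ptp61F, matched in replicate 3 at rank 6972.

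Of 17 hemocyte genes, 2 had a member, and they were the neighbouring type IV collagen genes. The promoter summit of vkg (chr2L:5027567) ranked 10324, 8365 and 10913, and that of Col4a1 (chr2L:5029506) ranked 10355, 7186 and 12954. Both were supported by replicate 2 alone. Of 17 fat body genes, 3 had a member: Npc2e, the lipase gene bmm, and Lsp1beta, a larval serum protein, whose ranks of 10222, 12255 and 10261 left it matched nowhere. Ecdysone response genes had 2 of 18, Eip75B and br, both supported by replicate 2 alone and both in intervals with a fully matched summit. At br the ranks were 27855, 3829 and 20051.

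Heat shock genes had 3 of 18, Hsp26, Hsp23 and the constitutive Hsc70-4. Hsp26 had its summit 5 bp from the start (chr3L:9377380, rank 4558), at rank 2840 in replicate 3 and 19891 in replicate 2. Ribosomal protein genes had 6 of 86 (6.98%), translation factors 1 of 22, testis genes 1 of 16 (Mst87F), and muscle and neuronal genes none of 16 and none of 15. The counts in these lists are small, between 0 and 6, and are read only against the 5.54% of all protein-coding genes. That base takes no account of how many genes of a list had any optimal summit, from 13.3% of neuronal to 86.0% of ribosomal protein genes. The share with any optimal summit was 70% for IMD and 61.5% for JNK pathway genes, against 37.9% of all protein-coding genes.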

How the data were processed

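Peak lists of Drosophila melanogaster dm6 were used as deposited by the authors: 3 replicate lists and 1 pooled list of 30000 summits, and 1 optimal list, the top of the pooled list. The signal column is the deposited peak signal, and the −log10 q-value column deposited by the authors was the same at all optimal summits and was not used for ranking. Neither the peak caller nor the aligner nor the reproducibility threshold was stated in the labels or headers, so each is not given in the sources used here. Read depth is unknown. The labels give fragments of 200 to 800 bp.

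Summits were matched, annotated with Ensembl release 115 (promoter within 500 bp of a transcription start) and searched for motifs on both strands of windows reaching 100 bp to each side, in the RefSeq genome. Shares have exact Clopper-Pearson 95% intervals and differences have Newcombe intervals (scipy 1.17.1, statsmodels 0.14.6). No test was made on what chose the members. The summit matching and the intervals were tested on simulated data. Members named are the 15 of highest signal, the 10 strongest matched nowhere, the 10 strongest with a κB match, the 3 strongest per supporting replicate, and up to 5 per gene list. The members and lists were chosen with earlier results of these data known.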

Additional observations from a re-analysis of the deposited data

How the results depend on the processing

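Shares are members minus fully matched summits, in percentage points, unless stated. With a match within 50 bp there were 1720 members, the promoter difference was 3.70 and the κB difference -5.77. With 200 bp the promoter difference was -6.66 and 4.69% of members shared an interval. With 500 bp there were 677 members, and these values were -9.59 and 1.18%, with κB at -0.77 and GATA at -1.54. With 5000 peaks per replicate there were 4684 members, κB was -5.65 and 9.46% shared an interval. With the full lists there were 86 members, κB was -4.77, the Ohler 1 core 2.01 and 24.4% shared an interval. With a summit inside a top interval counted as a match, 6.26% shared an interval. With the relaxed κB form the κB difference was -7.86. The share of unmatched pairs with a lower-ranked summit within the match distance, 81.8% in the report, was 47.8% at 50 bp, 93.6% at 200 bp, 96.7% at 500 bp, 93.4% with 5000 peaks, 85.3% by interval and 0% with the full lists, where no lower rank exists.

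Leaving out each replicate gave 352 to 446 members, κB -7.04 to 1.90 (1.90 without replicate 2), DRE -1.47 to 2.53, the Ohler 1 core -2.09 to 0.65, shared intervals 8.36% to 15.7%, and GATA -4.77 to -3.53, with an interval past 0 without replicate 1. These leave 2 replicates, of which neither matches a member. Each such set thus holds the members that the left-out replicate alone supported and those matched nowhere, so the part of that replicate is not removed. In the low band by signal, of 3 equal bands, κB was 1.51. In the middle band the promoter difference was 15.3, κB -0.40 and GATA -1.75. In the high band, with 6 members, these were -33.8, 4.86 and -21.8, with DRE -2.59 and the Ohler 1 core -3.34. The causes were not tested.

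The κB excess of replicate 2 alone over replicate 1 alone and the GATA difference were put through the alternatives after the data had been seen. The κB excess was 6.64 to 12.2 over 11 of its 13 alternatives, -1.85 in the middle band and 25 in the high band. Its interval included 0 with the full lists (6.67, -6.69 to 21.3), in the middle band (-22.3 to 13.4) and in the high band (-56.9 to 69.9). The GATA interval also included 0 with the full lists (-10.7 to 4.47) and in the middle and high bands. No paired analysis was possible because there was 1 group.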
